A study of Mus musculus with 13 samples.

Results

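The light chain and T cell receptor loci were examined in chromatin accessibility profiles of mouse haematopoietic stem cells (HSCs). These are the immunoglobulin kappa (Igk) and lambda (Igl) loci and the T cell receptor beta (Trb), alpha and delta (Tra and Trd, which share 1 locus) and gamma (Trg) loci. Members were the accessible regions of the deposited table whose midpoint lay in 5 fixed windows of the mm9 genome build. The Igk window ran from 67500000 to 70700000 on chromosome 6 and the Igl window from 19020000 to 19270000 on chromosome 16. The Trb window ran from 40840000 to 41510000 on chromosome 6, the Tra and Trd window from 53000000 to 54845000 on chromosome 14, and the Trg window from 19260000 to 19450000 on chromosome 13. The windows held 246 of the 115295 regions, and 106 of the 246 passed the filter on low counts and were tested.

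The antigen receptor genes are assembled in developing lymphocytes by V(D)J recombination, in which the RAG recombinase joins scattered variable, diversity and joining segments in front of a constant region. Kappa and lambda encode the light chains of antibodies and are rearranged in B cell precursors after the heavy chain. Beta pairs with alpha, and gamma with delta, to form the receptors of T cells, and their loci are rearranged in the thymus. A segment is recombined only where its chromatin is accessible, and HSCs lie upstream of all these steps with the loci unrearranged.

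The profiles came from Omni-ATAC-seq, an assay that uses a transposase to tag and read the open stretches of chromatin. Recipients were given a single Vwf+ HSC from mouse bone marrow and were classed by the lineages restored over 16 weeks. The 3 PLT-HSC libraries came from recipients with P-restricted reconstitution, the 6 PEM-HSC libraries from PEM-restricted recipients and the 4 MUL-HSC libraries from multilineage recipients. All 13 libraries were made from 500 donor-derived bone marrow cells each, of strain C57BL/6 and of the sorted phenotype LSK Flt3- CD150+ CD48- CD45.2+ Gata1-. Each set of cells thus descended from 1 transplanted HSC, and the sources used here leave unsaid whether the replicates of a group were taken from different recipients. The p-values therefore reflect the spread among these libraries alone, which may be technical. The surface phenotype of the sort was not checked against marker genes, which were not analysed here because no mm9 annotation was used.

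Library totals ranged from 1276962 to 3851165 counts over all regions. The 246 member regions took 1375 to 4586 counts of a library, or 0.0824% to 0.141% of its total. Levels are given as counts per 1000000 counts of the scaled total in tested regions (CPM), and fold changes as log2 values from edgeR's quasi-likelihood test with Benjamini-Hochberg adjustment over all 59408 tested regions. A region was called past the threshold at an adjusted p under 0.05. A bulk library cannot tell apart fewer cells with an open locus and less accessibility per cell.

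The loci differed in how densely they carried accessible regions. The Tra and Trd window held 172 regions, 93.2 per megabase, against 43.7 per megabase over the whole table. Trb held 42 regions (62.7 per megabase) and Trg held 9 (47.4 per megabase). Igk, the longest of the windows, held only 23 (7.19 per megabase), and Igl held none. The heavy chain locus (Igh), counted in the same way for comparison, held 160 regions between 114401623 and 117294870 on chromosome 12, or 55.2 per megabase.

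Member regions were weak and narrow. The median region averaged 1.27 CPM at Igk, 2.73 CPM at Trb, 2.78 CPM at Tra and Trd and 1.87 CPM at Trg, against 3.46 CPM over all 115295 regions. Median widths were 262 bp at Igk, 334 bp at Trb, 336.5 bp at Tra and Trd and 317 bp at Trg, against 417 bp over all regions. Of the 246 regions, 150 had at least 1 count in every library. The regions that passed the filter numbered 7 at Igk, 18 at Trb, 78 at Tra and Trd and 3 at Trg, which is 30.4%, 42.9%, 45.3% and 33.3% of each locus, against 51.5% of all regions.

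**Figure D1:**
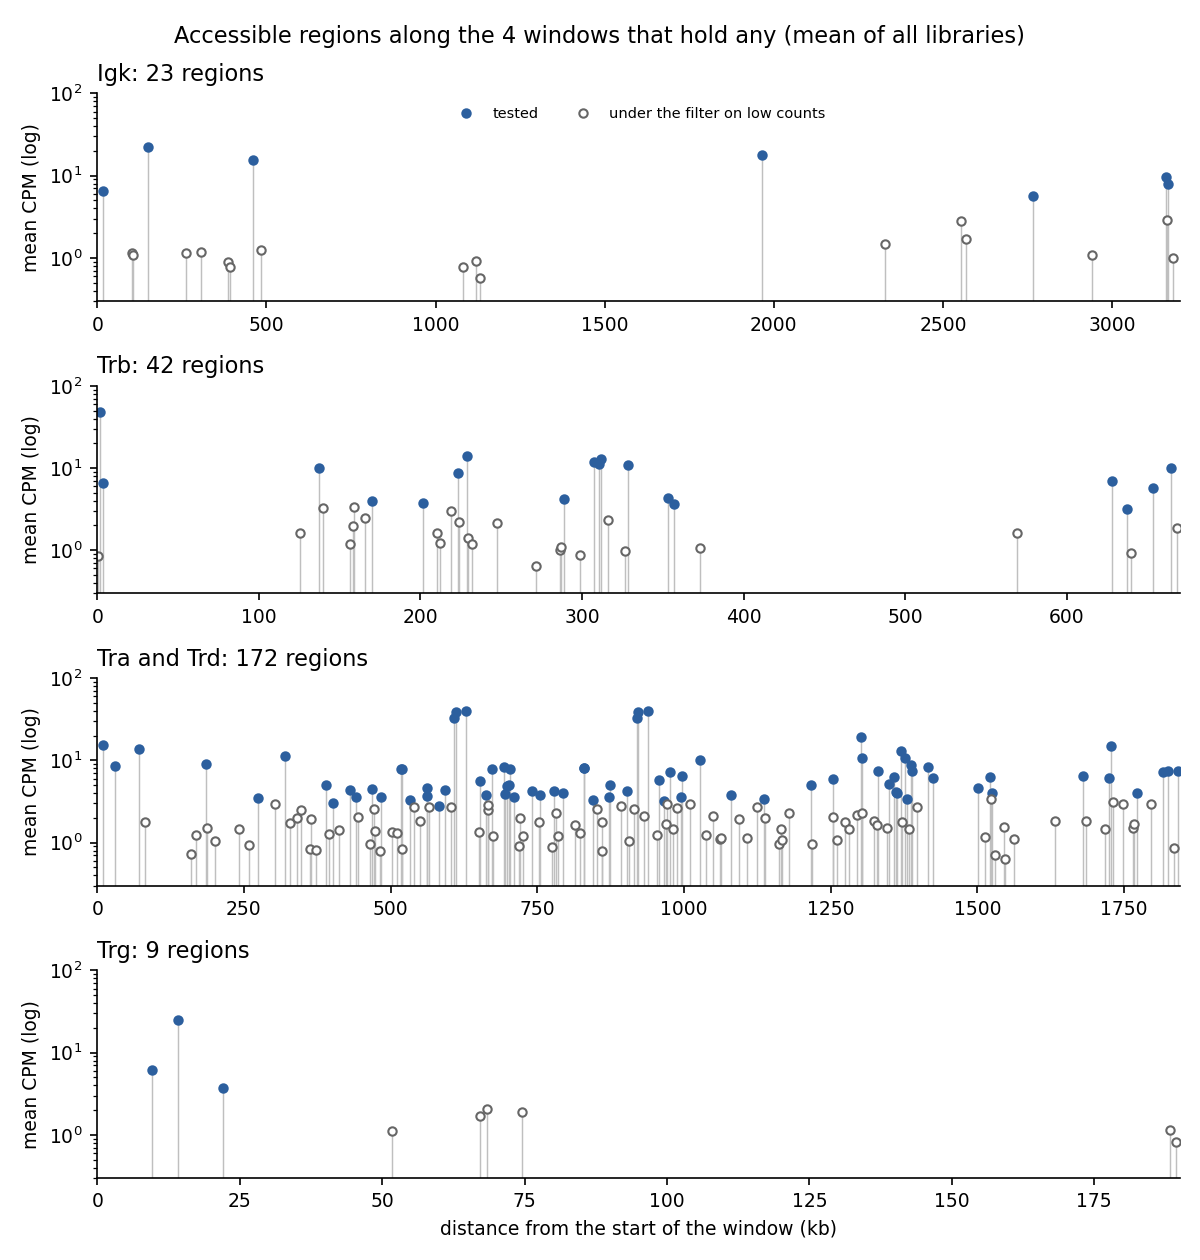
Mean CPM over all 13 libraries (vertical axis, log scale) of every member region against its distance from the start of its window in kb, with 1 panel per locus. Filled points passed the filter on low counts and open points did not; Igk has a stretch of 835.3 kb with no region, Trb one of 196.2 kb and Trg one of 113.4 kb.

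Regions were unevenly spread along the windows. Igk had no region between 1131 and 1966 kb from the start of its window, and Trb had none between 373.1 and 569.2 kb. At Trg, the 3 tested regions lay within 22.1 kb of the window start, and no region lay between 74.8 and 188.2 kb. The longest empty stretch at Tra and Trd was 78.5 kb, in a window of 1845000 bp. In RefSeq's GRCm38.p6 annotation, used here only for the order of genes, variable segments open the Igk, Trb and Tra series and the constant region genes Igkc and Trac close those of kappa and alpha. No member region was assigned to a segment, since the builds differ.

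The first question was whether these loci differ between HSCs of P-restricted and multilineage recipients. Of the 106 tested members, 2 were less accessible in PLT-HSC and 1 was more accessible. The 3 calls amount to 3 of 106, against 2.41% of all tested regions (1.28% lower and 1.13% higher). The members' median log2 fold change was -0.33, against 0.01 for all tested regions. The mean CPM was lower in PLT-HSC at 171 of the 246 members, or 69.5%, against 49.9% of all 115295 regions. The libraries did not overlap at 13 tested members that were lower in PLT-HSC and at 2 that were higher, against 6.56% and 6.67% of all tested regions. At an unadjusted p under 0.05, 22.6% of the members differed, against 15.4% of all tested regions. The members' shares and medians, here and in the comparisons below, count both sides of pairs of Tra and Trd regions with nearly matching counts, described below. Such pairs held 25 of the 106 tested members, so the members are not all separate observations. Of these 25, 6 had an unadjusted p under 0.05 in PLT-HSC against MUL-HSC, 2 in PEM-HSC against MUL-HSC and 3 in PLT-HSC against PEM-HSC.

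In PEM-HSC against MUL-HSC, 1 of the 106 members was called, higher in PEM-HSC, against 0.832% of all tested regions (0.589% lower and 0.242% higher). The members' median log2 fold change was -0.16, against 0.02 for all tested regions. PEM-HSC had the lower mean at 154 of the 246 members, or 62.6%, against 50.4% of all regions. The libraries did not overlap at 4 tested members that were lower in PEM-HSC and at 1 that was higher, against 2.08% and 1.51% of all tested regions. An unadjusted p under 0.05 was found for 10.4% of the members and for 13.6% of all tested regions.

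In PLT-HSC against PEM-HSC, no member was called by edgeR or by DESeq2, and 1 region was called in the whole table (0.00168%). At an unadjusted p under 0.05 in edgeR, 7 of the 106 members (6.6%) differed, against 4.61% of all tested regions. The members' median log2 fold change was -0.14, against 0 for all tested regions. The libraries did not overlap at 2 members, both lower in PLT-HSC, against 0.968% of all tested regions in that direction and 1.32% in the other. Both comparisons with MUL-HSC share its 4 libraries, so their values stand side by side and do not add to each other.

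**Figure D2:**
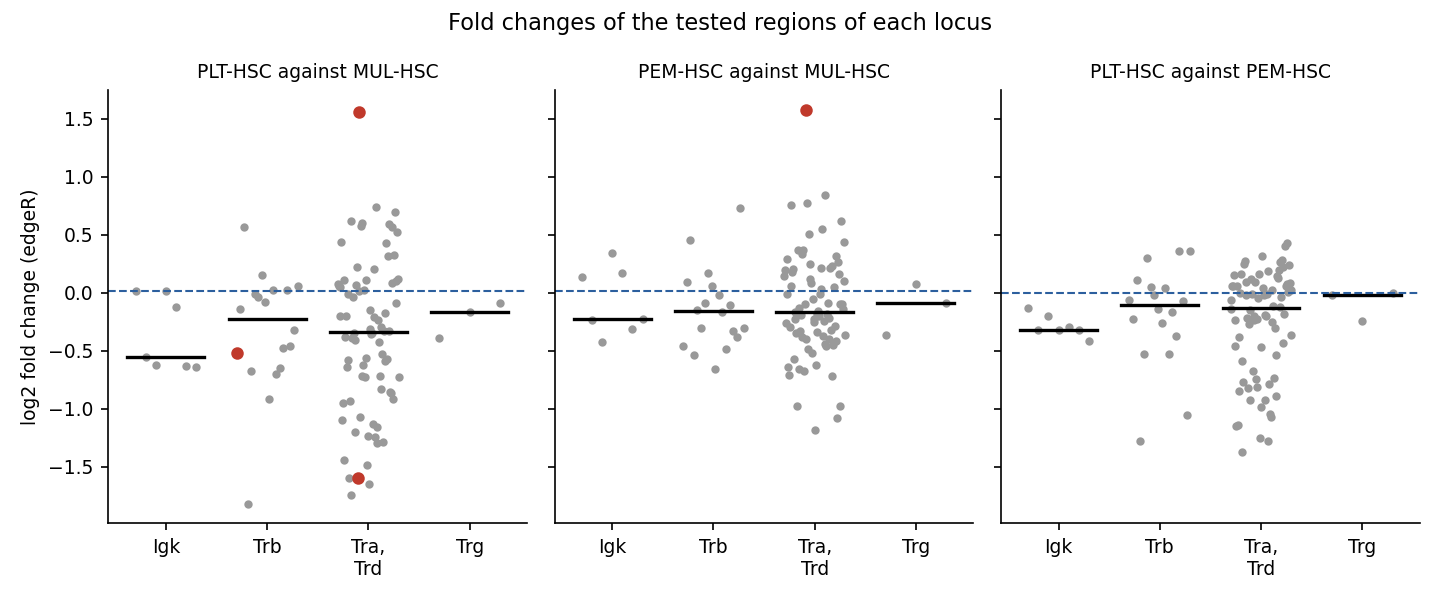
Log2 fold change from edgeR (vertical axis) of each of the 106 tested member regions by locus, in 1 panel per comparison. Red points passed the adjusted threshold, black bars are the locus medians and the dashed line is the median of all 59408 tested regions; the medians of all 4 loci lie below that line in the first panel.

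The summed accessibility of each locus, with counts of all its regions added up, was tested in a second fit of the same form. None of the 4 totals passed the threshold in any comparison, and groups overlapped at every one. The fitted direction was lower in PLT-HSC and in PEM-HSC than in MUL-HSC at all 4 loci, and lower in PLT-HSC than in PEM-HSC at all 4, with the exceptions under other settings given at each locus.

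**Figure D3:**
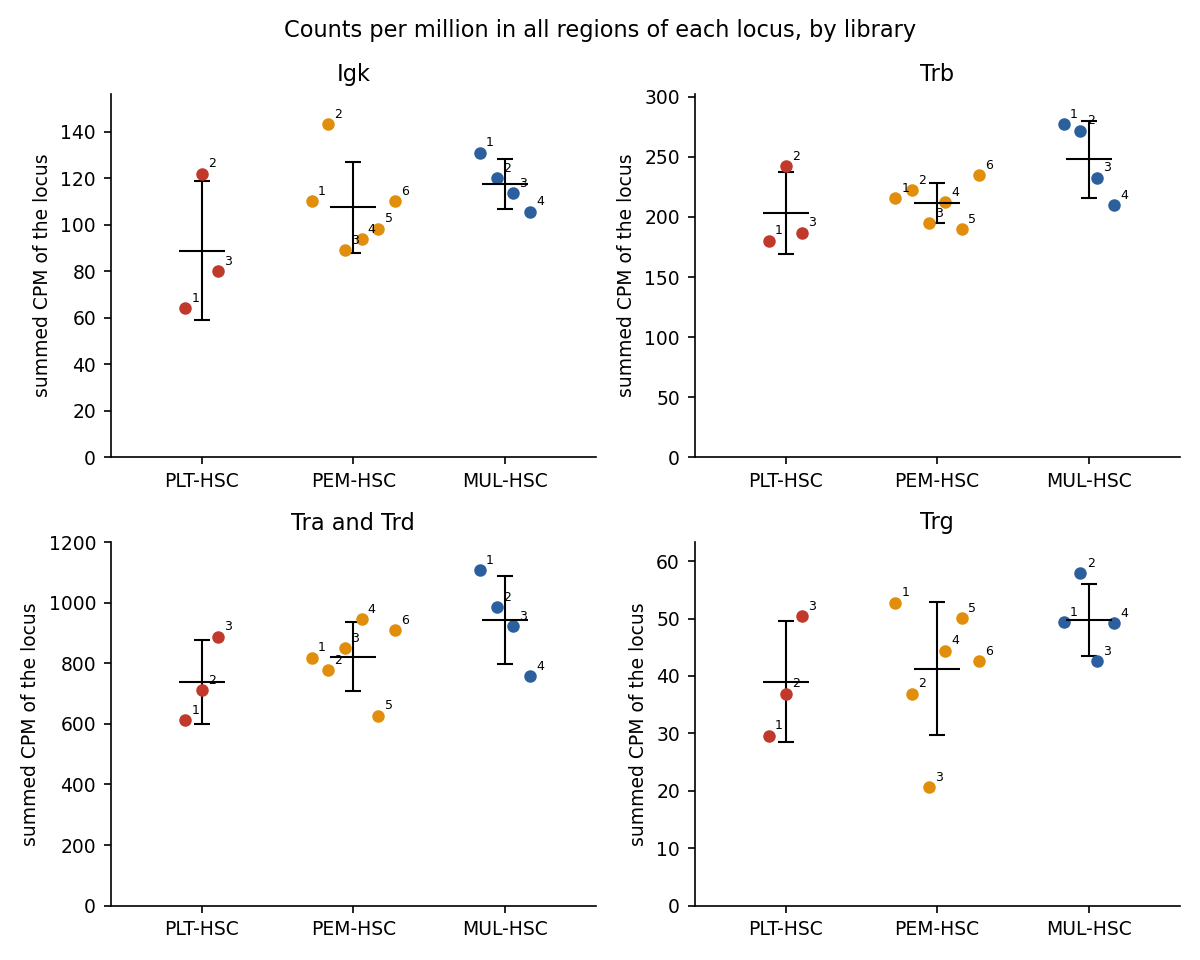
Summed CPM of all regions of Igk, Trb, Tra and Trd, and Trg (vertical axes, starting at 0) in each PLT-HSC, PEM-HSC and MUL-HSC library. Points are libraries numbered by replicate, and bars give the group mean and SD (n = 3, 6 and 4); the groups overlap at all 4 loci.

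The kappa locus provides most light chains of mouse antibodies. Its summed level was 64.1, 122 and 80.1 CPM in the PLT-HSC libraries. In PEM-HSC it was 88.9 CPM at the lowest, 104 CPM at the median and 143 CPM at the highest. In MUL-HSC it was 131, 120, 113 and 106 CPM. Replicates 1 and 3 of PLT-HSC lay below every other library, and replicate 2 lay within the MUL-HSC range. The log2 fold change of PLT-HSC against MUL-HSC was -0.42 ± 0.19 (SE; 95% interval -0.81 to -0.02), with an adjusted p of 0.294. Without PLT-HSC replicate 2 it was -0.69, with an adjusted p of 0.0232, so that library decides whether the total passes. Without PLT-HSC replicate 1 it was -0.23 (adjusted p = 0.66), and with all windows widened by 50 kb on each side it was -0.06 (adjusted p = 0.82). PEM-HSC differed from MUL-HSC by -0.14 (interval -0.48 to 0.19, adjusted p = 0.759). That difference was 0.02 with the widened windows, -0.22 without PEM-HSC replicate 2 and -0.09 without MUL-HSC replicate 1. PLT-HSC differed from PEM-HSC by -0.27 (interval -0.64 to 0.09, adjusted p = 1), by -0.08 with the widened windows, by -0.56 without PLT-HSC replicate 2 and by -0.09 without PLT-HSC replicate 1.

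At Igk, the 4 strongest regions lay on chromosome 6 at 67649038–67649505, 67961810–67962063, 69466262–69466623 and 70659312–70659962, which is 149.3, 461.9, 1966 and 3160 kb from the window start. The strongest of them, at 149.3 kb, had 9.76, 25.7 and 16.8 CPM in PLT-HSC. It had 15.2 to 41.2 CPM in PEM-HSC with a median of 19.6 CPM, and 27.6, 28.9, 23.1 and 21.7 CPM in MUL-HSC. Its groups overlapped, and its log2 fold change of PLT-HSC against MUL-HSC was -0.56 ± 0.32 (adjusted p = 0.436). The region at 3160 kb was the only tested Igk region whose PLT-HSC and MUL-HSC libraries did not overlap. Its levels were 8.79, 5.14 and 8.24 CPM in PLT-HSC, against 14.1, 9.1, 14 and 9.53 CPM in MUL-HSC, and 6.88 to 11.4 CPM in PEM-HSC. The fold change of that region in PLT-HSC against MUL-HSC was -0.63 ± 0.28, and its adjusted p of 0.27 did not pass. The region at 1966 kb averaged 16.4 ± 4.83 CPM in PLT-HSC (SD, n = 3), 20.1 ± 5.83 CPM in PEM-HSC (n = 6) and 16.1 ± 10.3 CPM in MUL-HSC (n = 4). Its fold changes against MUL-HSC were 0.02 ± 0.36 for PLT-HSC and 0.34 ± 0.31 for PEM-HSC, and MUL-HSC replicate 1, at 31.4 CPM, lay far above the other MUL-HSC libraries, at 9.92 to 12.6 CPM.

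At the region at 461.9 kb, the PLT-HSC libraries had 8.79, 19.6 and 8.58 CPM, the PEM-HSC libraries 7.73 to 24.9 CPM with a median of 12.2 CPM, and the MUL-HSC libraries 23.8, 27.3, 14 and 11.8 CPM. All 3 groups overlapped. The 7 tested Igk regions had a median log2 fold change of -0.56 in PLT-HSC against MUL-HSC, from -0.64 to 0.02, and -0.22 in PEM-HSC against MUL-HSC, from -0.42 to 0.34. In PLT-HSC against PEM-HSC all 7 fitted values were negative, from -0.42 to -0.13, and none had an unadjusted p under 0.05 in edgeR.

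The lambda locus encodes the minor light chain of the mouse and has few variable segments. No region of the table fell in its window, so no level, total or fold change can be given for Igl. The nearest regions lay on chromosome 16 at 18915602–18915863, 104.1 kb below the window, and at 19671055–19671454, 401.1 kb above it. The whole stretch without a region was 755.2 kb long. The table lists only regions that its makers called as accessible, so a missing region gives no level for that DNA.

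The beta locus encodes the chain that is the first to be tested for function in developing alpha beta T cells. Its summed level was 180.3, 243 and 187 CPM in PLT-HSC. In PEM-HSC it was 190.2 CPM at the lowest, 214 CPM at the median and 235 CPM at the highest, and in MUL-HSC 277, 272, 233 and 210.1 CPM. MUL-HSC replicates 1 and 2 lay above every other library, and replicate 4 lay among the PEM-HSC libraries. PLT-HSC differed from MUL-HSC by -0.28 ± 0.11 on the log2 scale (interval -0.52 to -0.05), with an adjusted p of 0.201. The difference of PEM-HSC from MUL-HSC was -0.22 ± 0.10 (interval -0.42 to -0.03, adjusted p = 0.287). PLT-HSC differed from PEM-HSC by -0.06 ± 0.10 (adjusted p = 1), by 0.01 without PLT-HSC replicate 1, by -0.20 without PLT-HSC replicate 2 and by -0.02 without PLT-HSC replicate 3. It was -0.09 without PEM-HSC replicate 3 and -0.10 without PEM-HSC replicate 5.

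One region carried 22% of all counts at Trb. It lay 1.5 kb from the window start, at 40840901–40842152 on chromosome 6, and at 1251 bp it was the widest of the locus. Its level was 34.8, 47.7 and 43.9 CPM in PLT-HSC. In PEM-HSC it ranged from 35.5 to 48.9 CPM with a median of 44.7 CPM, and in MUL-HSC it was 75.7, 55.4, 53.7 and 56.4 CPM. Every MUL-HSC library lay above every other library, with replicate 1 apart from the other MUL-HSC libraries. The region fell in PLT-HSC against MUL-HSC, by 0.52 ± 0.14 on the log2 scale (adjusted p = 0.0484). In PEM-HSC against MUL-HSC its fold change was -0.46 ± 0.12, and its adjusted p of 0.0714 did not pass. Settings that changed only which regions a locus holds left the fit of a single region unchanged. With those counted as held, the call in PLT-HSC held in 12 of 25 other settings. It was lost without any 1 of the PLT-HSC libraries (adjusted p = 0.287, 0.0623 and 0.058), without MUL-HSC replicate 1, 2 or 4 (adjusted p = 0.187, 0.0714 and 0.0822) and without PEM-HSC replicate 1 or 6 (adjusted p = 0.0558 and 0.0502), with fold changes of -0.61 to -0.40. With 1 surrogate variable the fold change was -0.24 (adjusted p = 0.932). The call was also lost with DESeq2 (adjusted p = 0.074) and, in edgeR, with no filter (0.0514), with the replicate number as a block (0.108) and without libraries under 2000000 counts (0.303).

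The 3 Trb regions next in level did not move with it. The regions at 228.6, 307.6 and 311.9 kb, at 41068223–41069049, 41147381–41147754 and 41151738–41152102, averaged 14.1, 11.2 and 12.9 CPM in PLT-HSC (SD 4.28, 7.02 and 7.42). They averaged 13.8, 12.5 and 13.2 CPM in PEM-HSC (SD 1.68, 3.74 and 6.57) and 14.9, 11.7 and 13 CPM in MUL-HSC (SD 5.78, 2.47 and 4.87). Their log2 fold changes of PLT-HSC against MUL-HSC were -0.04 ± 0.27, -0.08 ± 0.34 and 0.02 ± 0.43. Groups overlapped at all 3. Some weaker Trb regions were lower in PLT-HSC. The region at 41168042–41168894 had 7.81 to 7.94 CPM in PLT-HSC, against 9.03 to 17.4 CPM in MUL-HSC. Of the 18 tested Trb regions, 13 (72.2%) had a lower fitted value in PLT-HSC than in MUL-HSC, against 48.6% of all tested regions. The libraries did not overlap at 3 that were lower and 0 that were higher, against 6.56% and 6.67% of all tested regions.

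A weaker Trb region had the second smallest p of the members in PLT-HSC against PEM-HSC. It lay 169.9 kb from the window start, at 41009749–41010103, and had 1.95, 0.467 and 1.98 CPM in PLT-HSC. In PEM-HSC it had 1.88 to 6.01 CPM with a median of 3.99 CPM, and in MUL-HSC 7.06, 9.1, 4.51 and 3.05 CPM. Every PLT-HSC library lay below every MUL-HSC library, and 1 PEM-HSC library lay within the PLT-HSC range. The 13 counts in PLT-HSC, 52 in PEM-HSC and 39 in MUL-HSC limit its precision. Its fold change was -1.82 ± 0.55 in PLT-HSC against MUL-HSC (adjusted p = 0.0695) and -1.28 ± 0.52 in PLT-HSC against PEM-HSC (adjusted p = 1), so neither passed.

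Tra and Trd share a locus in which the delta segments lie within the alpha series, so that alpha rearrangement deletes delta. The summed level was 613, 712 and 888 CPM in PLT-HSC. In PEM-HSC it was 628 CPM at the lowest, 835 CPM at the median and 947 CPM at the highest, and in MUL-HSC 1107, 986, 922 and 757 CPM. The groups overlapped, and MUL-HSC replicate 4 lay below PLT-HSC replicate 3. PLT-HSC differed from MUL-HSC by -0.35 ± 0.15 on the log2 scale (interval -0.66 to -0.04), with an adjusted p of 0.249. The difference of PEM-HSC from MUL-HSC was -0.20 ± 0.12 (interval -0.46 to 0.06, adjusted p = 0.53), and that of PLT-HSC from PEM-HSC was -0.15 ± 0.14 (adjusted p = 1). The value of PEM-HSC against MUL-HSC was -0.12 without PEM-HSC replicate 5, -0.11 without MUL-HSC replicate 1 and -0.30 without MUL-HSC replicate 4. The value of PLT-HSC against PEM-HSC was -0.32 when PLT-HSC replicate 3 was left out and -0.04 when replicate 1 was. With 1 surrogate variable in the fit, both differences from MUL-HSC were positive, at 0.07 for PLT-HSC and 0.14 for PEM-HSC.

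The differences were not even along the Tra and Trd window. The window was divided into 5 equal parts. In parts 2, 3 and 4, the summed levels averaged 222 ± 37.8, 205 ± 50.5 and 140.1 ± 43.3 CPM in PLT-HSC (SD, n = 3), against 290.4 ± 33.6, 279 ± 48 and 185 ± 46.1 CPM in MUL-HSC (n = 4). PEM-HSC lay between them, at 251 ± 35.1, 238 ± 40.5 and 159.8 ± 38.3 CPM (n = 6). The last part, with 25 regions, averaged 99.2 ± 10.6 CPM in PLT-HSC, 91.9 ± 14.4 CPM in PEM-HSC and 97.8 ± 13.2 CPM in MUL-HSC. The first part, with 19 regions, averaged 72.2 ± 13.05 CPM in PLT-HSC, 80.4 ± 8.89 CPM in PEM-HSC and 91.7 ± 10.8 CPM in MUL-HSC. Pairs of regions with nearly matching counts, described below, join parts 2, 3 and 4 to each other, and a further pair joins parts 1 and 3. Parts 1 to 4 are therefore not separate observations. The 5 parts were described and not tested. Just beyond the window, 1.7 kb above its end, a region at 54846681–54848141 averaged 78.8 ± 4.54 CPM in PLT-HSC, 80.9 ± 3.77 CPM in PEM-HSC and 84.4 ± 11.6 CPM in MUL-HSC and was stronger than any member.

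Of the 78 tested Tra and Trd regions, 2 passed the threshold in PLT-HSC against MUL-HSC, against 2.41% of all tested regions. In PEM-HSC against MUL-HSC 1 of them passed, against 0.832% of all tested regions. The 2 regions moved in opposite directions in PLT-HSC, with their midpoints 6.3 kb apart. The first lay 692.7 kb from the window start, at 53692174–53693147 on chromosome 14. It had 2.6, 2.34 and 6.93 CPM in PLT-HSC. It had 4.29 to 10.5 CPM in PEM-HSC with a median of 8.03 CPM, and 14.8, 15.7, 8.03 and 12.2 CPM in MUL-HSC. All PLT-HSC libraries lay below all MUL-HSC libraries, and PEM-HSC overlapped both. It fell in PLT-HSC against MUL-HSC, by 1.59 ± 0.37 on the log2 scale (adjusted p = 0.0194), with 34 counts in PLT-HSC and 90 in MUL-HSC. In PEM-HSC against MUL-HSC its fold change was -0.67 ± 0.29 (adjusted p = 0.298), and in PLT-HSC against PEM-HSC it was -0.92 ± 0.36 (adjusted p = 1). The call in PLT-HSC held in 16 of 24 other settings that tested the region, again counting those that could not change its fit. The adjusted p of the call lay between 0.00322 and 0.957. Leaving out PLT-HSC replicate 1 or 2 (adjusted p = 0.141 and 0.091) or MUL-HSC replicate 1, 2 or 4 (adjusted p = 0.062, 0.0583 and 0.0576) ended it, at fold changes of -1.62 to -1.34. With 1 surrogate variable the fold change was -0.37 (adjusted p = 0.957).

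The second lay at 698.9 kb, at 53698629–53699203. It had 3.9, 6.07 and 8.24 CPM in PLT-HSC. It had 4.59 to 8.58 CPM in PEM-HSC with a median of 5.82 CPM, and 1.28, 1.65, 3.01 and 1.91 CPM in MUL-HSC. Every PLT-HSC and PEM-HSC library lay above every MUL-HSC library. It rose against MUL-HSC by 1.56 ± 0.42 in PLT-HSC (adjusted p = 0.0438) and by 1.57 ± 0.39 in PEM-HSC (adjusted p = 0.0451). These calls rest on 50 counts in PLT-HSC and 85 in PEM-HSC, against 15 in MUL-HSC. Among settings that tested the region, they held in 11 of 23 others for PLT-HSC and in 12 of 24 for PEM-HSC. These counts too include settings that could not change the region's fit. The call in PLT-HSC was lost without PLT-HSC replicate 1, 2 or 3 (adjusted p = 0.0521, 0.0977 and 0.168), PEM-HSC replicate 1 or 6 (0.0513 and 0.0515) or MUL-HSC replicate 1, 2 or 4 (0.133, 0.0972 and 0.13), at fold changes of 1.25 to 1.81. That in PEM-HSC was lost without PEM-HSC replicate 1, 2, 5 or 6 (adjusted p = 0.063, 0.0777, 0.119 and 0.0542) or MUL-HSC replicate 1, 2 or 4 (0.174, 0.13 and 0.182), at fold changes of 1.43 to 1.64. The fold change of PLT-HSC against PEM-HSC was -0.01 ± 0.32.

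**Figure D4:**
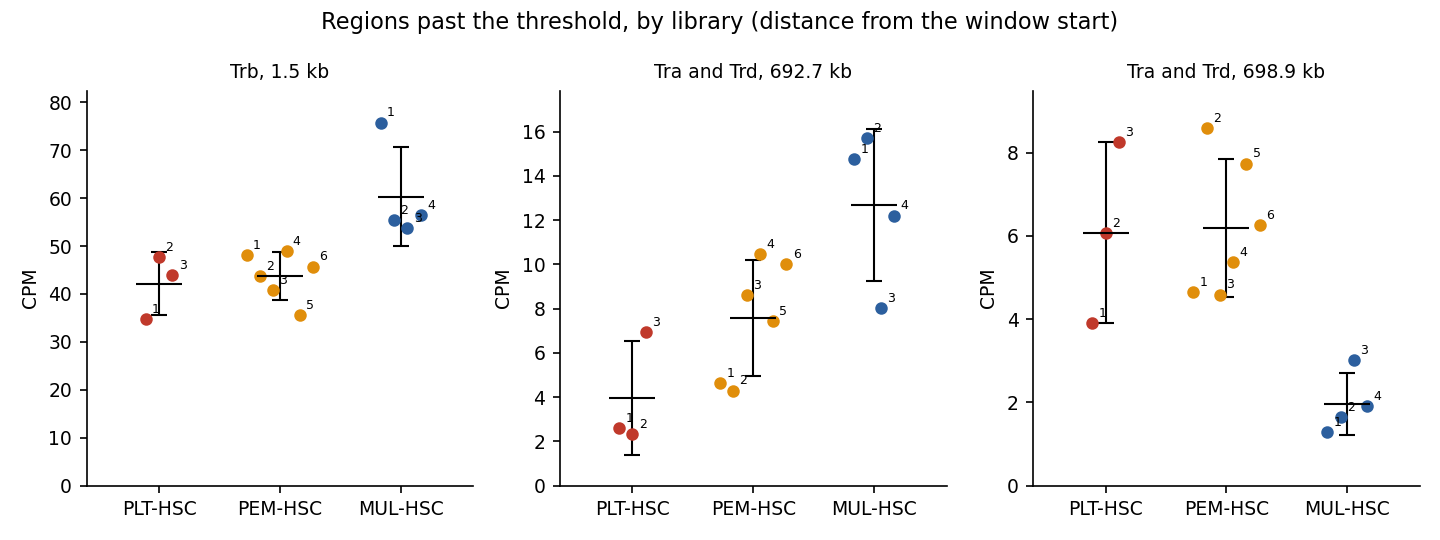
CPM (vertical axes, starting at 0) of the 3 member regions that passed the adjusted threshold, by library, in PLT-HSC, PEM-HSC and MUL-HSC. Points are libraries numbered by replicate, and bars give the group mean and SD (n = 3, 6 and 4); MUL-HSC lies above PLT-HSC in the first 2 panels and below PLT-HSC and PEM-HSC in the third.

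Regions between and beside this pair did not pass. The region at 695.8 kb averaged 4.02 ± 0.97 CPM in PLT-HSC, 3.5 ± 1.34 CPM in PEM-HSC and 4.26 ± 1.93 CPM in MUL-HSC. The region at 701.7 kb averaged 2.92 ± 1.04 CPM in PLT-HSC, 5 ± 1.05 CPM in PEM-HSC and 6.51 ± 2.68 CPM in MUL-HSC, with a fold change of -1.07 ± 0.41 in PLT-HSC against MUL-HSC (adjusted p = 0.172). At 704.2 kb the averages were 7.95 ± 0.42 CPM in PLT-HSC, 9.27 ± 1.67 CPM in PEM-HSC and 5.42 ± 1.81 CPM in MUL-HSC, with a fold change of 0.77 ± 0.27 in PEM-HSC against MUL-HSC (adjusted p = 0.178). These 3 neighbours were chosen after their values were seen.

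Among the members that did not pass, a region at 1424 kb, at 54423588–54424319, was the closest to the threshold in PEM-HSC against MUL-HSC. It had 4.88, 4.67 and 5.94 CPM in PLT-HSC. In PEM-HSC it had 2.87 to 6.22 CPM with a median of 4.4 CPM, and in MUL-HSC 8.98, 10.8, 9.03 and 9.53 CPM. MUL-HSC lay above every other library. Its fold change against MUL-HSC was -1.08 ± 0.28 in PEM-HSC (adjusted p = 0.0542) and -0.87 ± 0.32 in PLT-HSC (adjusted p = 0.149). A region at 994.5 kb, at 53994324–53994604, had 2.28, 1.4 and 1.32 CPM in PLT-HSC, against 2.01 to 5.49 CPM in PEM-HSC with a median of 4.91 CPM. Its MUL-HSC libraries had 0.642, 6.62, 5.02 and 4.19 CPM, so replicate 1 lay below all PLT-HSC libraries. The fold change of PLT-HSC against PEM-HSC was -1.27 ± 0.54 there (adjusted p = 1).

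The 4 strongest Tra and Trd regions came as 2 pairs with almost the same values. The regions at 610.7 and 921.9 kb, at 53610207–53611197 and 53921350–53922367, had 28, 37.4 and 40.2 CPM and 32.2, 36 and 37.3 CPM in PLT-HSC. In PEM-HSC they ranged from 30 to 42.6 CPM and from 32.1 to 40.1 CPM, and in MUL-HSC they had 43, 51.3, 45.1 and 41.2 CPM and 45.6, 52.9, 42.1 and 41.9 CPM. Their fold changes of PLT-HSC against MUL-HSC were -0.35 ± 0.15 and -0.36 ± 0.14 (adjusted p = 0.24 and 0.174). The regions at 627.7 and 938.9 kb, at 53627048–53628405 and 53938234–53939592, were 1357 and 1358 bp wide. They averaged 33.1 ± 3.31 and 34 ± 4.28 CPM in PLT-HSC, 39.9 ± 8.61 and 40.5 ± 9.44 CPM in PEM-HSC, and 44.6 ± 7.3 and 44.2 ± 8.51 CPM in MUL-HSC. None of the 4 passed in any comparison.

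Such pairs were then searched for across each locus, after they had been seen. A pair was counted where the widths were within 50 bp, the summed counts reached 40, and the counts over the 13 libraries differed by a chi-square per degree of freedom under 0.2, where independent counting would give about 1. Tra and Trd held 22 such pairs, and Igk, Trb and Trg held none. The pairs took in 41 of the 172 Tra and Trd regions, 25 of the 78 tested ones and 41.4% of the counts of the locus. No region called in any comparison was in such a pair.

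Most of the pairs were spaced alike. In the window of spacings from 310.89 to 311.19 kb lay 18 pairs of matching width, with a median chi-square per degree of freedom of 0.145, and 14 of them were under 0.2. The 2849 pairs of matching width at other spacings had a median of 1.36, and 0.281% of them were under 0.2. In RefSeq's GRCm38.p6 annotation, 40 Trav segments carry a name with d and 34 a name with n, the names given to the repeated copies of the alpha variable cluster. Whether the paired regions lie in such copies was not tested. The sources used here do not say how reads matching several places were counted, so the position of the values at paired regions could not be checked. Counted once per pair, the Tra and Trd total differed by -0.37 in PLT-HSC and by -0.20 in PEM-HSC against MUL-HSC (adjusted p = 0.257 and 0.55).

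**Figure D5:**
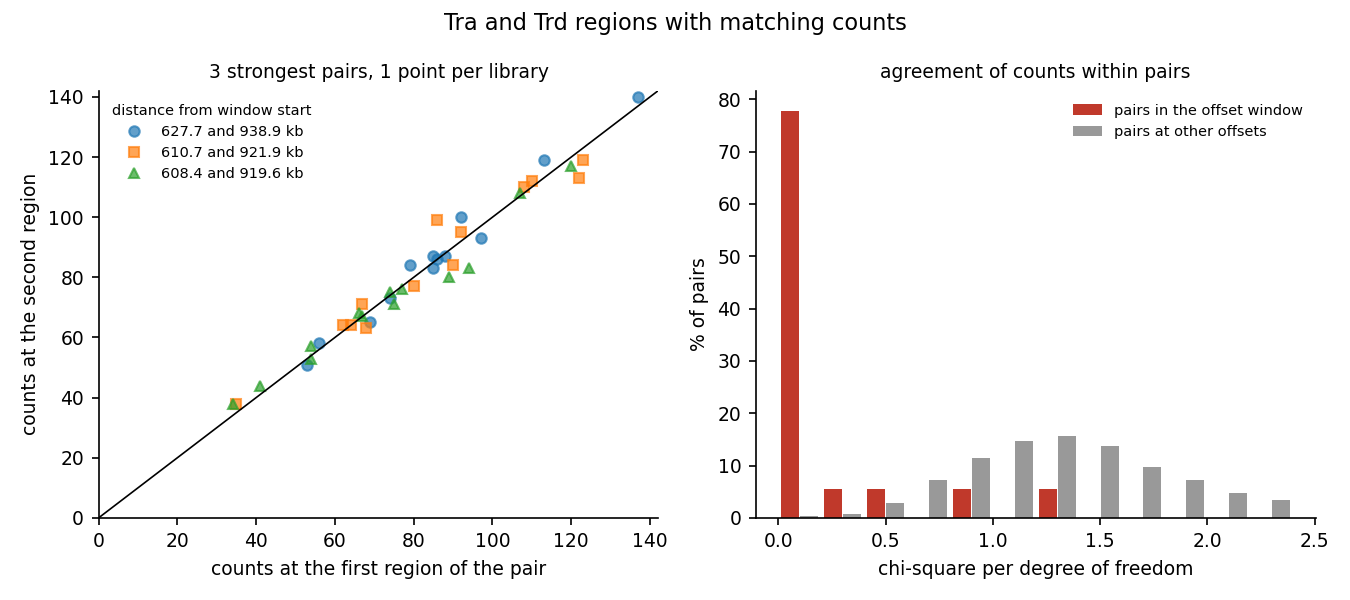
Left, raw counts of the 3 strongest pairs of Tra and Trd regions, first region on the horizontal axis and second on the vertical axis, 1 point per library, with the line of equal counts. Right, percent of pairs of matching width (vertical axis) by chi-square per degree of freedom (horizontal axis), for the 18 pairs in the spacing window and the 2849 at other spacings; 8.21% of the pairs at other spacings lie above the drawn range.

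Within PLT-HSC, several Tra and Trd regions split by library. The regions at 562.2 and 873.4 kb, at 53561904–53562539 and 53872984–53873775, had 2, 0 and 17 counts and 3, 1 and 19 counts in replicates 1, 2 and 3. In CPM they averaged 2.09 ± 3.07 and 2.57 ± 3.21 in PLT-HSC, 3.7 ± 1.83 and 3.69 ± 2.21 in PEM-HSC, and 7.84 ± 2.05 and 8.77 ± 1.68 in MUL-HSC. Neither passed in PLT-HSC against MUL-HSC (adjusted p = 0.155 and 0.117), and both passed without PLT-HSC replicate 3, at -4.14 ± 0.74 and -3.42 ± 0.63 (adjusted p = 0.00202 and 0.00264). The 3 regions at 652.5, 956.8 and 1349 kb had 4, 1 and 23, 4, 1 and 23, and 4, 1 and 20 counts in the same 3 libraries. In PEM-HSC these 3 had no count in replicate 2 and 41, 43 and 43 counts in replicate 4. These regions were picked after their values were seen, and their counts nearly match within each set, so they are not separate observations.

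The gamma locus is small and holds a few short clusters of segments with their own constant regions. Its summed level was 29.6, 36.9 and 50.5 CPM in PLT-HSC. In PEM-HSC it was 20.6 CPM at the lowest, 43.5 CPM at the median and 52.8 CPM at the highest, and in MUL-HSC 49.4, 57.9, 42.6 and 49.2 CPM. PEM-HSC replicate 3 was the lowest of all. PLT-HSC differed from MUL-HSC by -0.33 ± 0.24 (interval -0.84 to 0.17, adjusted p = 0.563) and PEM-HSC by -0.22 ± 0.20 (interval -0.66 to 0.22, adjusted p = 0.703). The value in PLT-HSC was -0.58 when its replicate 3 was left out and -0.16 when its replicate 1 was, and that in PEM-HSC was -0.09 without PEM-HSC replicate 3. PLT-HSC differed from PEM-HSC by -0.12 ± 0.22 (adjusted p = 1), by 0.06 without PLT-HSC replicate 1 and by -0.37 without PLT-HSC replicate 3. With the replicate number as a block that difference was 0.03. Leaving out PEM-HSC replicate 1, 3 or 5 gave -0.04, -0.25 and -0.05. When libraries under 2000000 counts were dropped, PEM-HSC differed from MUL-HSC by 0.08.

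At Trg, 1 region held 58.1% of the counts. It lay 14.2 kb from the window start, at 19273771–19274673 on chromosome 13, and had 16.3, 20.1 and 30.3 CPM in PLT-HSC. It had 10.3 to 32.7 CPM in PEM-HSC with a median of 28.6 CPM, and 26.9, 27.3, 24.1 and 23.3 CPM in MUL-HSC. Groups overlapped, and the fold changes against MUL-HSC were -0.17 ± 0.27 in PLT-HSC and 0.08 ± 0.23 in PEM-HSC. The regions at 9.7 and 22.1 kb, at 19269533–19269850 and 19281888–19282333, averaged 5.58 ± 0.29 and 3.69 ± 0.48 CPM in PLT-HSC, 5.34 ± 1.79 and 3.68 ± 1.61 CPM in PEM-HSC, and 7.54 ± 2.14 and 3.88 ± 1.19 CPM in MUL-HSC. Neither passed.

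The 4 Trg regions between 51.7 and 74.8 kb, too weak to be tested, were set apart by level. Summed, they had 3.91, 4.67 and 6.93 CPM in PLT-HSC. They had 1.88 to 6.76 CPM in PEM-HSC, and 10.9, 16.5, 9.53 and 9.91 CPM in MUL-HSC, above every other library. The counts behind this were 43 in PLT-HSC, 64 in PEM-HSC and 82 in MUL-HSC. The ratio to MUL-HSC was 0.469 in PLT-HSC (exact 95% interval 0.316 to 0.686) and 0.414 in PEM-HSC (0.294 to 0.582), with intervals for counting error only. By region, the ratios at 19326929–19327230 were 0.35 (0.143 to 0.785) and 0.231 (0.0981 to 0.504). Those at 19328260–19328504 were 0.596 (0.28 to 1.23) and 0.683 (0.372 to 1.27). Those at 19334345–19334781 were 0.789 (0.367 to 1.68) and 0.718 (0.367 to 1.43). The intervals of the last 2 regions include no difference in both groups. These 4 were singled out after their values were seen, and they carry no test.

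The weakest of them, at 19311608–19311846, differed most. It had 0.651, 0.467 and 0.66 CPM in PLT-HSC and 0 to 0.566 CPM in PEM-HSC, against 1.93, 4.13, 2.01 and 3.43 CPM in MUL-HSC. The 5 counts in PLT-HSC and 4 in PEM-HSC stood against 21 in MUL-HSC, a ratio of 0.213 (0.0627 to 0.58) and 0.101 (0.0252 to 0.3). PEM-HSC replicates 2, 3 and 6 had no count, which allows up to 3 counts or 2.57, 1.72 and 1.88 CPM in each. In a fit with no filter it was called lower in PEM-HSC against MUL-HSC (-3.09 ± 0.70, adjusted p = 0.0261). In the same fit it was not called in PLT-HSC against MUL-HSC. Since the region was picked after its values were seen, that call gives no separate support. The remaining region named for its level, at 19328260–19328504, had 1.67 ± 0.29 CPM in PLT-HSC, 1.75 ± 1.1 CPM in PEM-HSC and 2.78 ± 0.29 CPM in MUL-HSC.

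The heavy chain locus gives a measure for these values. It encodes the antibody chain that is rearranged before the light chains, and its lower accessibility was known when it was chosen, so it is described without support from its test. Its summed level was 507, 616 and 591 CPM in PLT-HSC. It was 609 CPM at the lowest, 677 CPM at the median and 846 CPM at the highest in PEM-HSC, and 1213, 1244, 906 and 992 CPM in MUL-HSC. The log2 fold change against MUL-HSC was -0.93 (interval -1.17 to -0.68) in PLT-HSC and -0.62 (interval -0.82 to -0.42) in PEM-HSC. With 1 surrogate variable these were -0.57 and -0.34 (adjusted p = 0.439 and 0.78). Without the libraries under 2000000 counts they were -0.74 (adjusted p = 0.000655) and -0.42 (adjusted p = 0.11). At Igk, Trb, Tra and Trd, and Trg the fold changes of PLT-HSC ran from -0.42 to -0.28. Of 58 tested Igh regions, 22 were called lower in PLT-HSC and 11 in PEM-HSC, against 1.28% and 0.589% of all tested regions. The difference between Igh and the other loci was not tested.

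The levels of shallow and deeper libraries were set side by side. The 5 libraries under 2000000 counts are replicates 2, 3 and 6 of PEM-HSC together with replicates 1 and 2 of MUL-HSC. In MUL-HSC, the shallow libraries had 272 and 277 CPM at Trb, against 210.1 and 233 CPM in the deeper libraries, and 986 and 1107 CPM at Tra and Trd, against 757 and 922 CPM. In PEM-HSC, the medians of the shallow and deeper libraries were 222 and 213 CPM at Trb and 851 and 818 CPM at Tra and Trd. At Trg in PEM-HSC the order was the other way, with 20.6 to 42.6 CPM in the shallow libraries and 44.4 to 52.8 CPM in the deeper ones. At Igh the medians in PEM-HSC were 657 CPM in the shallow libraries and 698 CPM in the deeper ones. In MUL-HSC the Igh medians were 1228 and 949 CPM. At Igk the shallow and deeper medians were 125.4 and 109.5 CPM in MUL-HSC and 110.2 and 98.3 CPM in PEM-HSC. At Trg in MUL-HSC they were 53.65 and 45.91 CPM. No PLT-HSC library was under 2000000 counts. Without the 5 libraries, PLT-HSC differed from MUL-HSC by -0.34 at Igk, -0.14 at Trb, -0.19 at Tra and Trd and -0.25 at Trg, and no member was called. The part of depth in the differences was not tested.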

How the data were processed

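Omni-ATAC-seq libraries of 500 sorted HSCs each were compared between 3 PLT-HSC, 6 PEM-HSC and 4 MUL-HSC samples, grouped by the sample labels. The authors deposited raw counts per accessible region in 1 table, with positions in mm9. The tools named in the submitters' processing notes are MACS2, Bowtie2, Picard, SAMtools, FastQC and Trim Galore. Not given in the sources used here are their versions, the counting tool, duplicate and multi-mapping handling, the shift of read ends, pooling for peak calling and whether starts count from 0 or 1. How reads that map to several places were treated could change values in repeated stretches.

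Counts were analysed in R 4.3.3 with edgeR 4.0.16: filterByExpr by group (59408 of 115295 regions, 91.4% of counts), totals over tested regions, TMM factors, and 1 robust quasi-likelihood fit of all 13 libraries, two-sided. Sums per locus were tested in a second fit of the same form, in which they were added to the regions as further features. The biological coefficient of variation was 15.6%. Intervals are at the 95% level; library totals of 1276962 to 3851165 counts limit weak regions. The scripts were tested on simulated data.

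Named regions are the 4 strongest per locus, every member called, and the 3 of smallest p per comparison; others are said to be chosen after their values were seen. The members and lists were chosen with earlier results of these data known. Alternatives were DESeq2 1.42.0, other scalings, filters and windows, 1 surrogate variable (sva 3.50.0), a replicate block, fits of only the groups compared, no libraries under 2000000 counts, and leaving out each library; library totals over all regions and pairs counted once were added after seeing the data. Gene lists and markers that need an mm9 annotation were not analysed.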

Additional observations from a re-analysis of the deposited data

Results flagged for a closer look

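The totals of the member loci and all named regions were searched for a library far from the rest of its group. Such a library was found in 7 of 50 groups of 4 to 6 libraries, all PEM-HSC or MUL-HSC. Chance would give about 1 in 20 of independent groups, but the same libraries recur across these. At Igk, the region at 67649038 on chromosome 6 had 41.2 CPM in PEM-HSC replicate 2, against 15.2 to 23.2 CPM in the other PEM-HSC libraries. The region at 69466262 had 30.8 CPM in PEM-HSC replicate 1, against 14.9 to 20.6 CPM in the others. It also had 31.4 CPM in MUL-HSC replicate 1, against 9.92 to 12.6 CPM in the other MUL-HSC libraries.

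At Trb, the region at 40840901 that was called in PLT-HSC had 75.7 CPM in MUL-HSC replicate 1, against 53.7 to 56.4 CPM in the others. The region at 41068223 had 16.9 CPM in PEM-HSC replicate 6, against 12 to 13.9 CPM in the others. The region at 41151738 had 25.8 CPM in PEM-HSC replicate 2, against 8.88 to 15 CPM in the others. At Trg, the region at 19269533 on chromosome 13 had 10.8 CPM in MUL-HSC replicate 2, against 6.42 to 6.52 CPM in the others. All of these values but that of PEM-HSC replicate 1 are from libraries under 2000000 counts. Whether depth had a part in these values was not tested.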

How the results depend on the processing

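Of the locus totals, those that changed sign did so at small values and far from the threshold. For Tra and Trd with 1 surrogate variable, PLT-HSC and PEM-HSC differed from MUL-HSC by 0.068 and 0.142. For PEM-HSC against MUL-HSC, the Igk total was 0.018 with windows widened by 50 kb and the Trg total 0.080 without libraries under 2000000 counts. For PLT-HSC against PEM-HSC, the Trg total was 0.029 with the replicate number as a block. Leaving out 1 library at a time gave 0.011 at the highest for Trb and 0.057 for Trg in that comparison, and lowest values of -0.203 and -0.370. In PLT-HSC against MUL-HSC, leaving out libraries moved the Igk total between -0.692 and -0.229. The lowest value passed the threshold.

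The count of members called in PLT-HSC against MUL-HSC, 3 in the fit described, was 1 with DESeq2, 1 with a mean of at least 20 counts, 0 with the replicate block, 0 with 1 surrogate variable and 0 without libraries under 2000000 counts, and 0 to 4 with 1 library left out. For PEM-HSC against MUL-HSC, 1 member became 0 with DESeq2, a mean of at least 20 counts, the compared groups alone, the replicate block, 1 surrogate variable or no libraries under 2000000 counts, 2 with no filter, and 0 to 2 with 1 library left out. Over all regions, 1431 calls became 1114 with DESeq2, 577 with a mean of at least 20 counts (29891 regions tested), 682 with the block, 4 with 1 surrogate variable and 275 without libraries under 2000000 counts in PLT-HSC against MUL-HSC. In PEM-HSC against MUL-HSC, 494 became 466, 230, 108, 1 and 13 under the same settings. The cause of the other changes was not tested. The deviations of same-numbered libraries correlated by -0.137 to 0.0999. Differently numbered libraries were not correlated for comparison, so whether replicate numbers pair the samples was not tested. No Igl value exists under any setting within its window. Low counts, down to 4 in a group of libraries, limit the weakest named regions.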
